A study of Mus musculus with 48 samples.

Results

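The 10 libraries described here are microglia, the resident macrophages of the brain, isolated from mice that had been injected 1 week earlier with lipopolysaccharide (LPS) or with saline. They were chosen by their titles, 5 LPS mice (33, 40, 44, 50 and 51) and 5 saline mice (38, 45, 46, 48 and 49), out of 47 libraries with counts in the series, and all genes were examined. The LPS mice were C57BL/6 animals given 1.5 mg/kg LPS into the peritoneum, and the saline mice were C57BL/6 animals given saline by the same route. No genetic alteration, sex or age is given in the labels. In both groups the medial prefrontal cortex was dissociated, myelin was removed on Percoll, and CD11b-bearing cells were pulled out magnetically. CD11b is an integrin chain, the product of Itgam. The beads also bind other cells that carry CD11b, which in the mouse include neutrophils, monocytes, border macrophages and natural killer (NK) cells. Poly(A) RNA was sequenced as read pairs, 1 library per mouse. The rest of the series compares mice offered 15% ethanol every other day for 60 days against water drinkers, in microglia and in unsorted tissue. Its 10 ethanol and 8 water microglial libraries are used here only as a second measure of the usual range of a gene and for a test of the difference between both responses.

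LPS is a cell wall molecule of Gram-negative bacteria that Toll-like receptor 4 (TLR4) recognises together with CD14 and MD-2, the product of Ly96. The receptor signals through MYD88 to NF-kB, which turns on cytokines such as TNF and IL-1 beta, and through TRIF to type I interferon and its target genes. Peripheral LPS is widely used to provoke a short inflammatory response of the brain, in which the messenger RNAs of most cytokines peak within hours. The comparison asks what is left of that response in microglia after 1 week.

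Library totals in genes averaged 29.6 M reads ± 5.33 in LPS libraries and 27.2 M ± 7.83 in saline libraries (SD, n = 5 each), with a range of 20.8 to 39.9 M over the 10. The share of reads outside annotated genes averaged 32.3% ± 8.44 after LPS and 31.3% ± 6.06 after saline. In exact two-sided permutation tests over the 10 libraries, depth gave p = 0.603 and this share p = 0.825, where the smallest p the design allows is 0.00794. After adjustment over 4 such measures the p-value was 0.825 for each. All 25 markers of homeostatic microglia were detected, and their sum was 49360 to 63530 CPM after LPS and 53700 to 65880 CPM after saline. Here and below CPM is the count of a gene relative to all counts in genes of its library, on the usual scale of that unit. Saline mouse 38 stood apart, with a median Spearman correlation with the other libraries of 0.894. Saline mouse 48 was next, at 0.937, close to the 0.944 to 0.969 of the rest. Main counts are also given without these 2, a choice made after the data were seen. The labels number the mice and give no litter, batch or day, so p-values measure the spread between these libraries, part of which may be technical.

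Across the transcriptome few genes separated the groups 1 week after the injection. Of 24062 genes in the files 12469 passed the filter on low counts, and 2 of them were higher after LPS at an adjusted p below 0.05 in edgeR's quasi-likelihood test, which is 0.0160% of the genes tested. They were Saa3, an acute-phase apolipoprotein that mouse macrophages make, and Lag3, an inhibitory receptor that binds MHC class II. No gene was called lower, where 354 genes had an unadjusted p below 0.05 in that direction and DESeq2 called 29 lower and limma-voom 0. In all, 721 genes (5.78%) had an unadjusted p below 0.05, with 367 higher (2.94%) and 354 lower (2.84%). The median log2 fold change, LPS over saline, of all genes tested was -0.0046. The middle 50% of genes lay between -0.23 and 0.22.

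The number called moved with the libraries and the tool. Without LPS mouse 33, 44 or 50, or without saline mouse 46, no gene was called by edgeR, with 707, 613, 556 and 707 genes at an unadjusted p below 0.05. Without LPS mouse 40 or saline mouse 48 or 49 it called 1 gene, without saline mouse 38 it called 5 and without saline mouse 45 it called 6. Without both saline mice 38 and 48 it called 10 of 13357 genes (0.0749%). Those were Saa3, Lag3, Gzma, Ccl5, Il2rb and D730005E14Rik, all higher, and Hsp90aa1, Hspa1a, Bag3 and Aars, all lower. DESeq2 called 44 higher (0.921%) and 29 lower (0.607%) of the 4775 genes to which it gave an adjusted p. limma-voom called Lag3 alone, with 810 genes at an unadjusted p below 0.05.

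**Figure D1:**
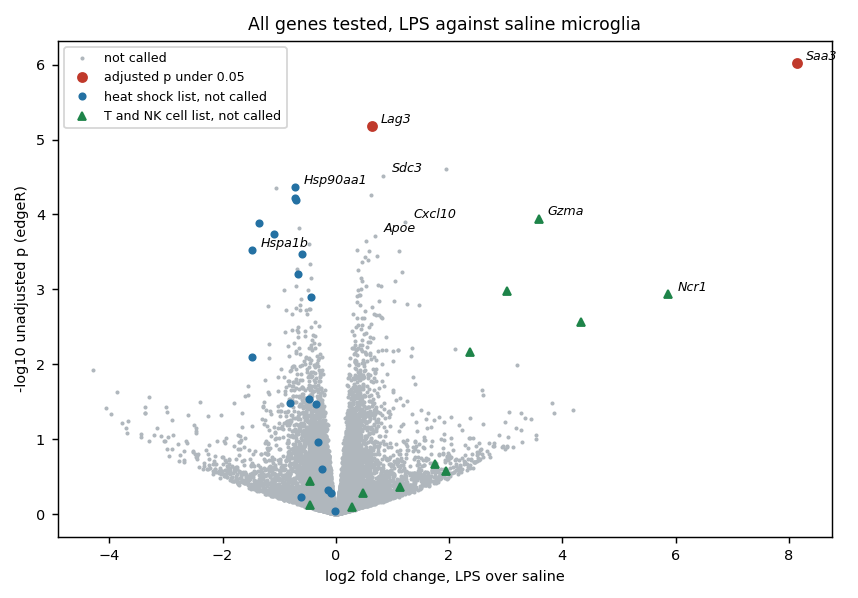
Each point is 1 of the 12469 genes tested, placed by its log2 fold change of LPS over saline microglia (horizontal axis) and the -log10 of its unadjusted p in edgeR (vertical axis), from 5 LPS and 5 saline libraries. Red points are Saa3 and Lag3, the 2 genes called. Blue points are the 19 members of the heat shock list, all left of 0, and green triangles are the 12 tested members of the T and NK cell list, 10 of them right of 0.

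Saa3 (ENSMUSG00000040026, GRCm38 chr7:46711998-46715700, minus strand) was present in every LPS library and close to absent elsewhere. Its counts were 634, 240, 532, 402 and 54 in LPS mice 33, 40, 44, 50 and 51, against 0, 0, 0, 0 and 6 in saline mice 38, 45, 46, 48 and 49. The groups did not overlap, the lowest LPS library having 54 counts and the single saline library with a count having 6. In CPM these were 17.8, 7.99, 16.6, 13.97 and 2.54 CPM after LPS, against 0, 0, 0, 0 and 0.1505 CPM after saline. Over the summed counts the ratio of LPS to saline, corrected for depth, was 285.6 with a 95% exact interval of 131 to 779.3, which covers counting error only. The interval treats every count as a separate molecule, but all 6 counts above 0 were even numbers, and how read mates were counted is not given in the sources used here. Over all genes with a count, 53.6% to 75.2% of counts were even in the 10 libraries. The fitted log2 fold change was 8.14 (SE 1.11, adjusted p = 0.0119), a value that depends on how the empty saline libraries are treated.

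Other microglia of the series, from mice that drank ethanol or water, had little or no Saa3. The 10 ethanol libraries had 0 counts, and of 8 water libraries 7 had none and mouse 24 had 8. A count of 0 allows up to 3 counts in that library. Saa1, Saa2 and Saa4, the other serum amyloid A genes of the mouse, had 0 counts in all LPS and saline libraries. Neutrophil markers, whose cells carry CD11b, summed to 1073 to 1272 CPM after LPS and 777 to 1247 CPM after saline. Saline mouse 38, at 1247 CPM, was the only saline library in the LPS range, and the other 4 saline libraries lay below every LPS library. Without this mouse the sum was thus higher in the same libraries as Saa3, but single markers did not all follow the sum. Of 13 tested members 11 had positive log2 fold changes, and S100a8 and Lcn2 were highest in saline mouse 48, at 53.5 and 30.4 CPM. The water library of mouse 19, in which neutrophil markers summed to 20090 CPM, had 0 counts of Saa3. The part of neutrophils in the Saa3 difference was not tested. The call on Saa3 was lost without LPS mouse 33 (adjusted p = 0.0802), 44 (0.0559) or 50 (0.0763), without saline mouse 46 (0.054), in limma-voom (0.116) and in a fit on all 4 microglial groups (0.0695). DESeq2 gave it no adjusted p.

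The region around the start of Saa3 is shown because this gene had the largest difference in the comparison. It spans 250 bases before the start site to 50 after it, chr7:46715627-46715926 of GRCm38.p6, minus strand, from RefSeq. Capitals mark matches to TTNNGNAA, a core that C/EBP factors bind.
Saa3 promoter: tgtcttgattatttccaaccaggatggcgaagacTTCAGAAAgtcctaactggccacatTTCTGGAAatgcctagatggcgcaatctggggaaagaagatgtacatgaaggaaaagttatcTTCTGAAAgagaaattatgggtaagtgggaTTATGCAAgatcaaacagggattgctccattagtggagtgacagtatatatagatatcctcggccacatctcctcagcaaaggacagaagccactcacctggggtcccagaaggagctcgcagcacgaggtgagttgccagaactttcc
There were 4 matches, at 216, 191, 129 and 99 bases before the start. Such a match was present in 40.7% of the 32851 mouse promoters of the same length in the table, on either strand. A match to the interferon response core (GAAA, any 2 letters, GAAA) lay 125 bases before the start and overlapped the third C/EBP match. It occurs in 3.44% of promoters. No match to the NF-kB core (GGG, any 5 letters, CC), found in 50.8%, was in these letters.

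Lag3 (ENSMUSG00000030124, GRCm38 chr6:124904361-124911705, minus strand) was an abundant microglial transcript in all 10 libraries. It had 1252, 976, 1029, 1178 and 950.3 CPM after LPS, against 749.8, 732, 639, 600.1 and 755 CPM after saline. Every LPS library lay above every saline library, with 950 CPM as the lowest after LPS and 755 CPM as the highest after saline. The means were 1077 ± 132 CPM after LPS and 695 ± 70.9 CPM after saline (SD, n = 5 each), and the log2 fold change was 0.63 (SE 0.10, adjusted p = 0.0415). The ethanol and water microglia lay between 635 and 754 CPM and between 509 and 754 CPM, below every LPS library. Unsorted tissue had 7.36 to 11.4 CPM.

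T cells and NK cells also make LAG3, and their markers differed in the same libraries. The 19 measured markers of the T and NK cell list summed to 46.9 to 157 CPM after LPS and 19.1 to 37.3 CPM after saline. In ethanol and water microglia they summed to 10.9 to 29.7 CPM and 11.1 to 54.8 CPM. The water range thus reached above LPS mouse 51, at 46.9 CPM. The T cell receptor gene Cd3e, which does not mark NK cells, reached at most 1.07 CPM. These values do not measure how much Lag3 such cells carry, and their part in the Lag3 difference was not tested. The call on Lag3 was lost without LPS mouse 33 (adjusted p = 0.0836), 40 (0.104), 44 (0.0559) or 50 (0.259) and without saline mouse 46 (0.269), 48 (0.0955) or 49 (0.129). It was also lost with a score of neuron, astrocyte, oligodendrocyte and endothelial markers as a covariate (0.0724), at a log2 fold change of 0.63. That score held no T or NK cell marker. DESeq2 (5.72e-08) and the remaining settings kept it below 0.05.

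**Figure D2:**
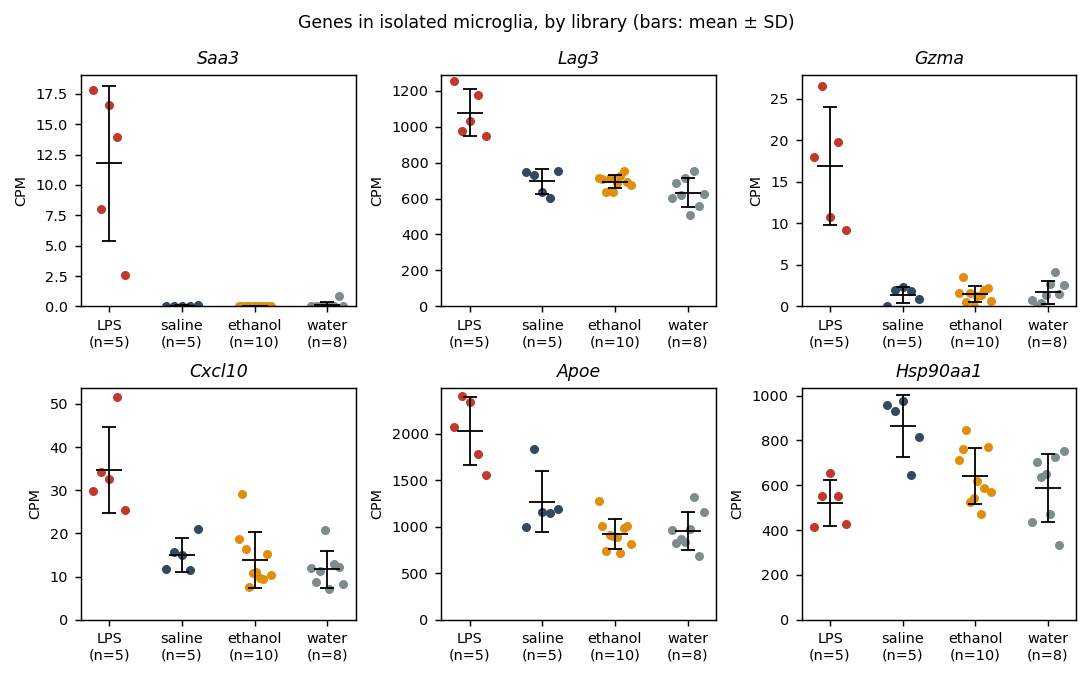
Each point is the CPM of a gene in 1 microglial library, by group (LPS and saline, n = 5 each, then ethanol, n = 10, and water, n = 8), with the mean and SD as bars and linear axes from 0. Saa3 and Lag3 were called between LPS and saline. Gzma, Cxcl10, Apoe and Hsp90aa1 did not pass the adjusted threshold in the main edgeR fit, and DESeq2 called Apoe and Hsp90aa1. All 5 LPS libraries lie above all other libraries for Saa3 and Lag3.

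Behind these genes stood a group with adjusted p-values of 0.0882, named here after their values were seen. Sdc3, a heparan sulfate proteoglycan of the cell surface, had 190.0, 216, 165, 185 and 132 CPM after LPS, against 81.99, 132, 87.5, 103 and 96.999 CPM after saline, and its log2 fold change was 0.83 (SE 0.15). The groups did not overlap, but only just, with 131.73 CPM in LPS mouse 51 and 131.64 CPM in saline mouse 45. Usp35, a ubiquitin protease, had a log2 fold change of 0.61 (SE 0.12) and no overlap between the groups. The others were D730005E14Rik and Gm13889 and the heat shock genes Hsp90aa1, Dnaja1 and Bag3, described below. Libraries that did not overlap were seen in 122 genes higher after LPS (0.978%) and 84 lower (0.674%).

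The named lists that follow were written with earlier results of these data known, and they are described by counts and medians with no test of a list. Many of the example genes were picked after their values were seen, for the smallest p in their list. Over all genes tested, 2.94% were higher and 2.84% lower at an unadjusted p below 0.05, the shares to set beside the counts below. Libraries without overlap made up 0.978% in the higher and 0.674% in the lower direction. Apart from Saa3 and Lag3, no list member passed the adjusted threshold in the main edgeR fit, on all 10 libraries with the filter on low counts. Without that filter the edgeR calls included Gzma (adjusted p = 0.0135) and Apoe (0.0206). Adjusted p-values are edgeR's unless DESeq2 is named. Of the genes just described, DESeq2 called Sdc3, Usp35 and Gm13889. Of those below given without its result, it called Tlr1, Ptgs2, Dusp2, Ccl3, Fcgr2b, Ctsc, Klf2, Siglech, Rassf4, Aars and Yars, among others. In bulk RNA a higher or lower level can mean more or fewer cells of a type or more or less RNA in each, and these cannot be told apart.

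The LPS receptor and its adaptors did not separate the groups. Tlr4 had 98.7, 63.4, 85.5, 81.99 and 63.6 CPM after LPS, against 33.4, 84.6, 87.5, 55.2 and 82.1 CPM after saline, and its log2 fold change was 0.20 (SE 0.21, adjusted p = 0.987). The groups overlapped, and the highest and the lowest value were 98.7 CPM in LPS mouse 33 and 33.4 CPM in saline mouse 38. Its co-receptor genes Cd14 and Ly96 had 0.09 (SE 0.11) and 0.53 (SE 0.58), and the adaptor Myd88 -0.06 (SE 0.13). Among the 28 tested members of the Toll-like receptor list the median was 0.08, with 3 higher and 1 lower at an unadjusted p below 0.05. Leaving out saline mice 38 and 48 gave 1 in each direction. The 3 on all libraries were Tlr1, Tlr13 and Tlr9, receptors for bacterial lipopeptides, bacterial ribosomal RNA and unmethylated DNA. Tlr1, the partner of TLR2, had 54.2, 47.7, 61.7, 58.3 and 50.3 CPM after LPS, against 19.6, 37.1, 38.6, 40.7 and 34.2 CPM after saline, without overlap. Ticam1, which encodes TRIF, was the one lower, at -0.42 (SE 0.13, adjusted p = 0.561).

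Of the cytokine list, 25 members were tested, 17 had a positive log2 fold change and the median was 0.29, or 0.15 without saline mice 38 and 48. Il1b, the pyrogenic cytokine that inflammasomes process, had 133, 258, 141, 237 and 169.9 CPM after LPS, against 66.04, 116, 129, 119 and 128 CPM after saline. All 5 LPS libraries lay above the 5 saline libraries, the closest being 133 CPM in LPS mouse 33 and 129 CPM in saline mouse 46, and the log2 fold change was 0.76 (SE 0.20, adjusted p = 0.339). DESeq2 called Il1b (adjusted p = 0.0372). Tnf was at 0.35 (SE 0.13, adjusted p = 0.717) with overlapping libraries, and Ptgs2, the inducible prostaglandin synthase, 1.26 (SE 0.34, adjusted p = 0.354). Il6 and Il10 stayed at or below 3.59 CPM in all 10 libraries. Of the 28 NF-kB factors and feedback genes, 4 had an unadjusted p below 0.05, all higher: Dusp2, Nfkbiz, Tnfaip3 and Zc3h12a, genes that NF-kB signalling itself induces. Their log2 fold changes were 0.64, 0.31, 0.38 and 0.33. Nfkbia, the inhibitor of NF-kB, had 0.17 (SE 0.12).

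Chemokines and their receptors gave 23 tested members, 18 of them with positive log2 fold changes, a median of 0.37 and 8 with an unadjusted p below 0.05, all higher. Cxcl10, which draws cells that carry CXCR3, had 29.7, 34.3, 32.6, 51.5 and 25.3 CPM after LPS, against 11.8, 15.7, 14.9, 11.6 and 21.1 CPM after saline. The groups did not overlap, and the log2 fold change was 1.21 (SE 0.25, adjusted p = 0.134). Ccl3, an inflammatory chemokine, had 569, 433, 496, 617 and 473 CPM after LPS, against 362, 329.7, 401, 415 and 391 CPM after saline, also without overlap, at 0.44 (SE 0.11, adjusted p = 0.27). Ccl4 had 0.39, with overlapping libraries. Ccl2, which draws monocytes, went the other way at -0.24 (SE 0.15, adjusted p = 0.987). The median of the list was 0.18 without saline mice 38 and 48. Ccl5 belongs to this list too and is given with the NK cell genes.

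Most interferon-stimulated genes had small positive differences. Of 39 tested members 35 had a positive log2 fold change, the median was 0.42 and 5 had an unadjusted p below 0.05, all higher. Their summed level was 1058 to 1171 CPM after LPS and 907 to 1033 CPM after saline, without overlap. Ifit2, an antiviral protein that binds RNA, had 16.5, 22.6, 10.1, 23.2 and 11.7 CPM after LPS, against 2.98, 13.2, 3.51, 5.78 and 7.87 CPM after saline, at 1.35 (SE 0.43, adjusted p = 0.592), and saline mouse 45 lay within the LPS range. Irf7 and Ifit3 had 0.31 (SE 0.33) and 0.42 (SE 0.50). In ethanol and water microglia the same sum ranged from 912.5 to 1231 CPM and from 781 to 1300 CPM, which covers both groups.

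Of 18 tested genes of MHC class I and its antigen processing, 3 had an unadjusted p below 0.05, all higher and without overlap between the groups (0.978% of all genes): B2m, H2-M3 and Nlrc5. B2m, the light chain that all MHC class I molecules share, had 1193, 1105, 1078, 1158 and 973 CPM after LPS, against 923, 941, 840.4, 928 and 897 CPM after saline. The log2 fold change was 0.28 (SE 0.08, adjusted p = 0.491), and DESeq2 called it (0.00861). The heavy chains H2-K1 and H2-D1 had 0.09 (SE 0.10) and 0.11 (SE 0.13). Nlrc5, which activates class I genes, had 24.4, 30.1, 30.2, 18.8 and 18.7 CPM after LPS, against 0.769, 17.05, 2.91, 13.7 and 12.3 CPM after saline, at 1.39 (SE 0.53, adjusted p = 0.764). The 11 tested class II genes had a median of 0.0020 (-0.16 without saline mice 38 and 48) and none with an unadjusted p below 0.05. Complement C3 had 24.6, 30.96, 26.3, 26.3 and 16.9 CPM after LPS, against 0, 8.98, 11.5, 2.64 and 6.39 CPM after saline, without overlap, at 2.10 (SE 0.68, adjusted p = 0.592). C4b had 1.01 (SE 0.33, adjusted p = 0.596), where saline mouse 45, at 70.0 CPM, lay inside the LPS range. C3 ranged from 7.07 to 27.6 CPM in ethanol and from 4.01 to 781 CPM in water microglia. Of 20 tested complement genes 13 had positive and 7 negative log2 fold changes, with a median of 0.09. An unadjusted p below 0.05 was found for 5, all higher. Among the negative ones were Serping1 at -3.70, C1s1 at -1.09 and C2 at -0.92.

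Genes of the disease-associated state, which microglia take on around plaques and myelin debris, were mixed. Of 25 tested, 18 had a positive log2 fold change, the median was 0.15 and 7 had an unadjusted p below 0.05, all higher. Apoe, the lipid carrier of the brain, had 2074, 2406, 2344, 1783 and 1553 CPM after LPS, against 998, 1839, 1161, 1146 and 1187 CPM after saline. Only saline mouse 45, at 1839 CPM, reached the LPS range of 1553 to 2406 CPM, and the log2 fold change was 0.69 (SE 0.15, adjusted p = 0.159). Without that mouse edgeR called it (log2 fold change 0.85, adjusted p = 0.0214). On all libraries edgeR called it with no filter on low counts (0.0206), and DESeq2 called it too (0.00154). Axl and Itgax, a receptor for apoptotic cells and an integrin, had 0.71 (SE 0.24) and 0.72 (SE 0.25). Trem2, the lipid receptor on which the state depends, had 658, 431, 510.3, 560.3 and 556 CPM after LPS, against 752, 567, 533, 492 and 599.6 CPM after saline, at -0.12 (SE 0.13), and the groups overlapped.

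Lipid handling genes summed to 4822 to 5873 CPM after LPS and 3635 to 5267 CPM after saline, of which Apoe makes up a large part. Beside Apoe the smallest p-values were those of Soat1, Plin2, Lipa and Abca1, which esterify, store, release and export cholesterol or fat, with log2 fold changes of 0.42, 0.54, 0.34 and 0.43. None passed the adjusted threshold. Of 35 lysosomal and phagocytic genes 7 had an unadjusted p below 0.05 in the higher direction and 1, Gas6, in the lower. Ctsc, the cathepsin that activates granule proteases, had 310.2, 311, 313, 355 and 284 CPM after LPS, against 198, 278, 238, 215 and 262 CPM after saline, without overlap, at 0.41 (SE 0.10, adjusted p = 0.318). Fcgr2b, the inhibitory receptor for immunoglobulin G, had 233, 182, 243, 222 and 221 CPM after LPS, against 175, 167, 140.2, 176 and 162 CPM after saline. The groups again did not overlap, and the log2 fold change was 0.42 (SE 0.11, adjusted p = 0.318). Fcgr3 and Fcgr1 had 0.07 and 0.04, and Fcgr4 had 1.26, the highest of the Fc gamma receptor list.

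Glycolysis genes had positive log2 fold changes in 16 of 20, a median of 0.23 and 5 with an unadjusted p below 0.05, all higher. Their summed level was 3617 to 4077 CPM after LPS and 3079 to 3485 CPM after saline, without overlap. Pfkfb3, whose product makes the main activator of phosphofructokinase, had 722, 795, 794, 959.6 and 750.2 CPM after LPS, against 426, 535, 606, 556 and 704 CPM after saline. Hk2, the inducible hexokinase, had 591, 564, 594, 676 and 606 CPM after LPS, against 395, 479, 445, 479 and 523 CPM after saline. Neither overlapped between groups, and their log2 fold changes were 0.51 (SE 0.12, adjusted p = 0.192) and 0.39 (SE 0.09, adjusted p = 0.234). DESeq2 called both. In water microglia the summed level of the list ranged from 2597 to 4644 CPM. Oxidative phosphorylation genes had a median of -0.10, with 31 of 47 negative, and without saline mice 38 and 48 it was -0.022, with 26 negative.

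The identity genes of microglia differed little. Of 25 homeostatic markers 20 had a negative log2 fold change, the median was -0.08, and 4 had an unadjusted p below 0.05, all lower: Cst3, Siglech, P2ry12 and Slc2a5. Siglech, a sialic acid receptor, had 763, 658, 706, 761 and 675 CPM after LPS, against 882, 783, 881, 820.2 and 874 CPM after saline. The groups did not overlap, although the log2 fold change was only -0.25 (SE 0.08, adjusted p = 0.624). P2ry12, the ADP receptor that guides microglial processes, had 2007, 1553, 1873, 1715 and 1766 CPM after LPS, against 1932, 2145, 2130.3, 1957 and 2061 CPM after saline, at -0.20 (SE 0.08, adjusted p = 0.774). Tmem119, Cx3cr1 and Itgam had -0.17, -0.14 and 0.11 with SE 0.11, 0.07 and 0.08. Without saline mice 38 and 48 the median of the list was -0.040.

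Of 22 tested lineage factors 4 had an unadjusted p below 0.05, all lower: Klf2, Klf4, Klf6 and Smad3. The first 3 are Krüppel-like transcription factors, which also respond early to many stimuli. Klf2, which keeps macrophages quiescent, had 1188, 806, 663, 722 and 775 CPM after LPS, against 1799.8, 1030.3, 1198, 1182 and 1452 CPM after saline. Only LPS mouse 33, at 1188 CPM, reached the saline range of 1030.3 to 1799.8 CPM, and the log2 fold change was -0.69 (SE 0.16, adjusted p = 0.234). Klf4 and Klf6 had -0.33 (SE 0.11) and -0.25 (SE 0.09). Of the 27 tested immediate early genes 6 had an unadjusted p below 0.05, all lower, among them these 3 and Fosb, Jund and Atf3. Fos itself had -0.07 (SE 0.15), and the median of the list was -0.03. Without saline mice 38 and 48 the median was 0.07.

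**Figure D3:**
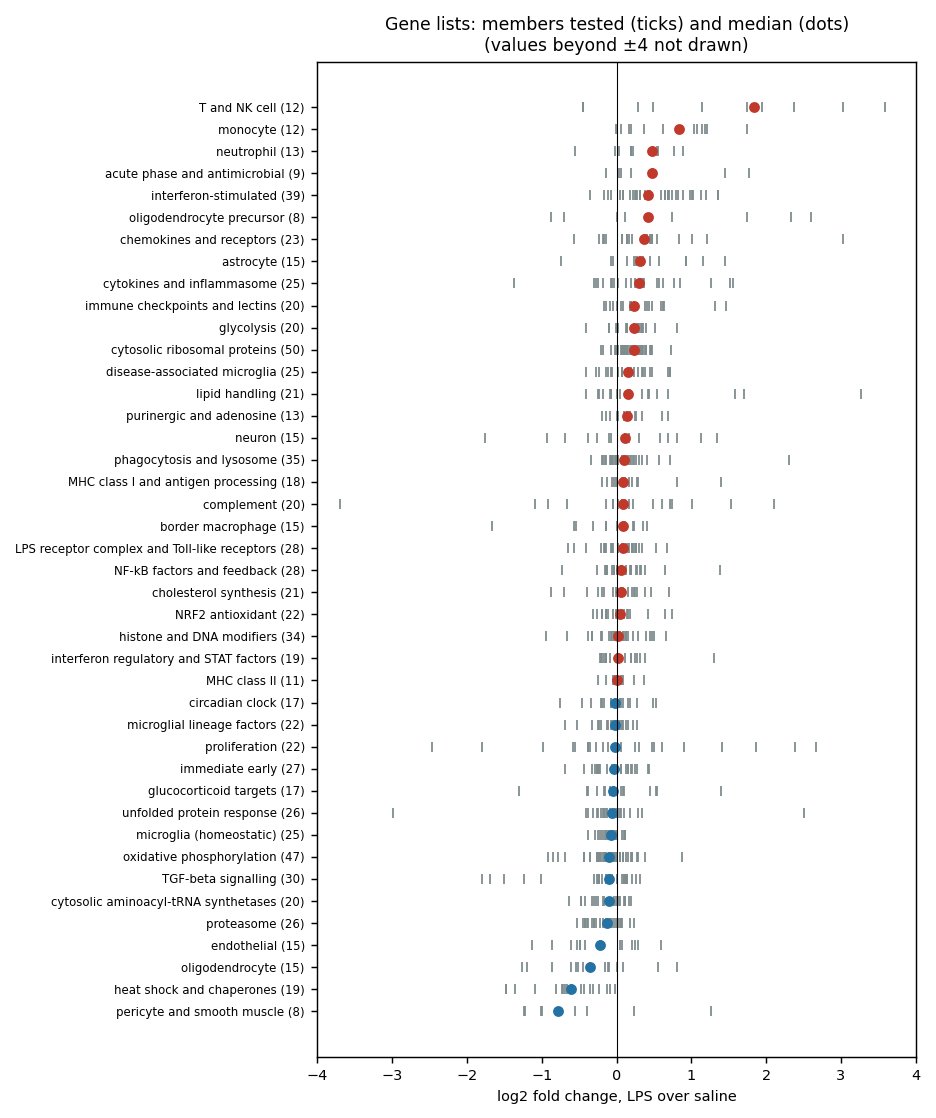
Each row is a gene list with at least 8 tested members (number in brackets), grey ticks are the log2 fold changes of its members, LPS over saline microglia, and the dot is their median (red above 0, blue below). The T and NK cell list has the highest median, 1.84, and the heat shock list, at -0.62, lies below all lists but that of pericytes and smooth muscle. Values beyond 4 in either direction are not drawn.

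Heat shock genes had lower levels after LPS throughout the list. They encode chaperones that hold unfolded proteins, and HSF1 turns them on through repeats of GAA and TTC called heat shock elements. All 19 members had a negative log2 fold change, with a median of -0.62 (all genes, -0.0046), and 13 had an unadjusted p below 0.05, where 2.84% of all genes did in this direction. None passed the adjusted threshold in the main edgeR fit, and DESeq2 called 7 of them lower, where it called 0.607% of its genes lower. Their summed level was 4732 to 6845 CPM after LPS and 6876 to 12460 CPM after saline, and the groups did not overlap by a narrow margin. Saline mouse 38 had the highest sum. Without saline mice 38 and 48, 17 of 19 were negative, 10 had an unadjusted p below 0.05 (1.94% of all genes) and 3 were called (0.0749% of all genes in that fit), at a median of -0.55.

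By member, Hsp90aa1, the inducible cytosolic HSP90, had 414, 554, 656, 554 and 427 CPM after LPS, against 958, 929, 974, 646 and 814 CPM after saline. LPS mouse 44 and saline mouse 48 touched, at 656 and 646 CPM, and the log2 fold change was -0.73 (SE 0.14, adjusted p = 0.0882). Its constitutive partner Hsp90ab1 had 1166, 1163, 1464, 1316 and 1026 CPM after LPS, against 2568, 1803, 1676, 1583 and 1599 CPM after saline, without overlap, at -0.59 (SE 0.13, adjusted p = 0.192). Hspa8, the constitutive HSP70, had -0.43 (SE 0.11), also without overlap. Dnaja1, a cochaperone of HSP70, had 144, 225, 211, 199 and 160.5 CPM after LPS, against 379.6, 309, 296, 277 and 284 CPM after saline. Bag3, which hands HSP70 clients to autophagy, had 70.1, 87.96, 106, 85.3 and 103 CPM after LPS, against 149, 162, 163, 121 and 139 CPM after saline. Neither overlapped, and both had an adjusted p of 0.0882.

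The inducible genes of the list spread most among saline mice. Hspa1a had 277, 327, 581, 412 and 353 CPM after LPS, against 1881, 1002, 954, 517 and 604 CPM after saline, at -1.36 (SE 0.28, adjusted p = 0.134), and saline mouse 48 fell into the LPS range. Hspa1b is a near-identical copy of Hspa1a, so reads between them may be split by the counting, and its -1.48 (SE 0.33) is uncertain in the same way. Hsph1, the HSP110 exchange factor, had 86.7, 117, 230.1, 141 and 114 CPM after LPS, against 398, 338, 309.9, 183 and 228 CPM after saline, at -1.09 (SE 0.23, adjusted p = 0.159), with LPS mouse 44 inside the saline range. Hsf1 itself had -0.02 (SE 0.20). In ethanol and water microglia the list summed to 5481 to 9865 CPM and 3743 to 9242 CPM, and of the 10 libraries only saline mouse 38 lay above that range. For Hsp90aa1 alone the ethanol and water ranges were 471 to 847 CPM and 335 to 752 CPM. Saline mice 38, 45 and 46 lay above both, at 958, 929.5 and 974 CPM, and every LPS library lay within the water range.

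Promoters of 14 of the 19 genes were in the RefSeq table for GRCm38.p6, with 20 start sites, and 5 of these 20 promoters, from 4 genes, held the element GAA, any 2 letters, TTC, any 2 letters and GAA on either strand, a motif of 0.603% of all promoters. The stretches are shown because these repeats are what HSF1 reads. Capitals mark the matched letters, overlapping matches being joined, and up to 10 bases stand on each side.
Hsph1, chr5:149636287-149636310, minus strand: atgctgcagaTTCTGGAAAGTTCt
Hspd1, chr1:55088049-55088086, minus strand: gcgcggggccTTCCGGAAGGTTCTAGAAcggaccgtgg
Chordc1, chr9:18292253-18292295, plus strand: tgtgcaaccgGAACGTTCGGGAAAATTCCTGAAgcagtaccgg
The Hspd1 stretch, read on the plus strand, is also the match of Hspe1, whose gene runs the other way from the same promoter. Hspd1 and Hspe1, the mitochondrial chaperonin and its lid, had log2 fold changes of -0.67 (SE 0.16) and -0.81 (SE 0.35). Chordc1, an HSP90 partner that held 3 overlapping matches, had -0.24 (SE 0.20).

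Genes of cytotoxic lymphocytes had low levels in all libraries, with higher values after LPS. Of 19 members found of the T and NK cell list 12 were tested, and 5 of them had an unadjusted p below 0.05 and no overlap between the groups, where 0.978% of all genes had no overlap in this direction. The filter on low counts can be passed through the libraries of 1 group alone. Members near 0 after saline, such as Ncr1, were therefore tested only through their LPS libraries, which favours higher values among the 12. Among all 19 found, the number without overlap was also 5. Gzma, a granule protease, had 17.9995, 26.6, 10.7, 19.8 and 9.23 CPM after LPS, against 0, 1.97, 2.37, 1.84 and 0.903 CPM after saline. The lowest LPS library, at 9.23 CPM, was above the highest saline library, at 2.37 CPM, and the log2 fold change was 3.58 (SE 0.72, adjusted p = 0.134). Without saline mouse 38 edgeR called it (3.27, adjusted p = 0.00497), as it did on all libraries with no filter on low counts (adjusted p = 0.0135). Ncr1, the activating receptor NKp46 that marks NK cells, had counts of 111, 78, 112, 240 and 72 after LPS, against 0, 9, 0, 0 and 1 after saline, a pooled ratio of 56.42 (95% exact interval 30.5 to 118.2, counting error only). Its adjusted p was 0.318. Other NK cell markers of the list overlapped between the groups: the receptor gene Klrd1 had -0.45 (SE 1.48), the granule gene Gzmb 0.48 (SE 0.74) and Nkg7 1.14 (SE 1.43).

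Prf1, the pore-forming perforin, had 9.701, 23.1, 2.4001, 7.44 and 5.08 CPM after LPS, against 0, 1.12, 0, 0 and 1.25 CPM after saline. Ccl5, a chemokine that NK and T cells store, had 21.98, 26.8, 12.2, 12.7 and 6.31 CPM after LPS, against 0, 2.51, 1.91, 4.36 and 1.103 CPM after saline, and Il2rb, the shared receptor chain for IL-2 and IL-15, had 15.6, 26.2, 9.94, 14.3 and 8.47 CPM after LPS, against 0, 1.76, 2.55, 7.38 and 2.76 CPM after saline. Each was without overlap, with adjusted p-values of 0.435, 0.295 and 0.597. T cell genes had few counts. Cd3e had 28, 32, 8, 0 and 0 counts after LPS, against 0, 22, 0, 0 and 0 after saline, and Cd3d had 0 in every LPS library. Cd3g had 10, 38, 0, 0 and 32 counts after LPS, against 0, 4, 0, 0 and 0 after saline, and Cd8a summed to 55 counts after LPS, all in mouse 33, and 12 after saline. Cd5 had 1.94 (SE 1.68). Cd4, which mouse macrophages also make at low level, had -0.45 (SE 0.47). LPS mouse 40 had the highest sum of the list and LPS mouse 51 the lowest among LPS mice. Without saline mice 38 and 48, 5 of the 12 had an unadjusted p below 0.05 in this direction (2.79% of all genes) and 3 were called (0.0749% of all genes in that fit), Gzma, Ccl5 and Il2rb, at a median of 2.13.

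**Figure D4:**
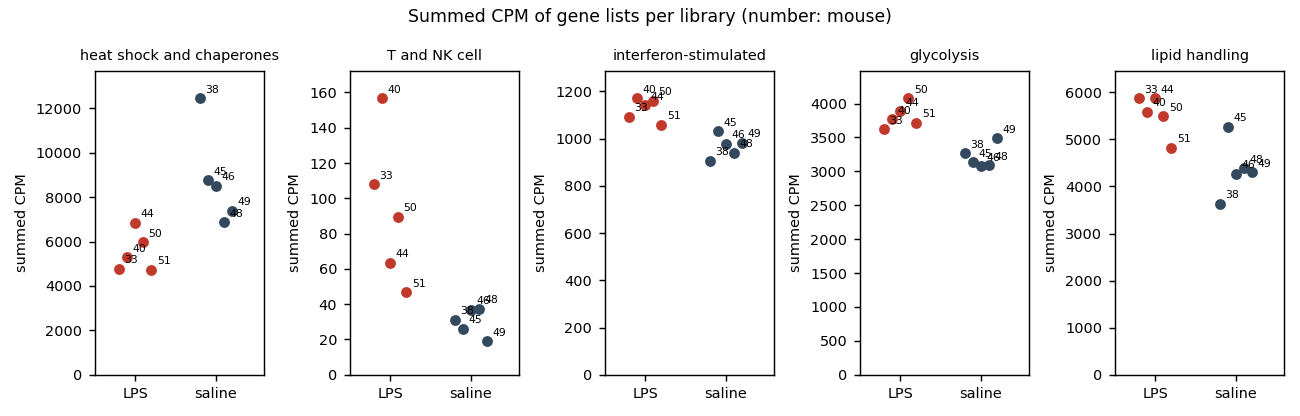
Each point is the summed CPM of a gene list in 1 library of the LPS group (left, red) or the saline group (right, dark), labelled with the mouse number, on linear axes from 0. The heat shock, T and NK cell, interferon and glycolysis sums do not overlap between the groups, while in the lipid handling list saline mouse 45 lies among the LPS mice. Saline mouse 38 has the highest heat shock sum, 12460 CPM.

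Markers of other cells were compared for the same libraries. Monocyte markers summed to 663 to 1055 CPM after LPS and 575 to 831 CPM after saline, with 11 of 12 log2 fold changes positive, a median of 0.83 (0.56 without saline mice 38 and 48) and 1, Itgal, with an unadjusted p below 0.05. Neutrophil markers had 11 of 13 positive and a median of 0.48, with Mmp9 alone below 0.05. Leaving out saline mice 38 and 48, 12 of 13 were positive, the median was 0.96 and 6 were below 0.05. S100a8 had 48.6, 34.2, 40.2, 18.3 and 14.4 CPM after LPS, against 33.8, 10.5, 21.8, 53.5 and 12.3 CPM after saline. Border macrophage markers had a median of 0.08, or -0.12 without both mice, and Mrc1 had 0.11 (SE 0.28). Neurons, astrocytes and oligodendrocytes gave no marker with an unadjusted p below 0.05. Astrocyte, oligodendrocyte precursor, dendritic cell and neuron markers had medians of 0.31, 0.42, 0.27 and 0.11. Without saline mice 38 and 48 these were 0.141, 0.142, -0.391 and 0.165. Oligodendrocyte, endothelial, and pericyte and smooth muscle markers had negative medians of -0.353, -0.222 and -0.781. On all libraries monocyte, neutrophil and cytotoxic cell markers thus had positive medians beside those of the immune lists above. So did the astrocyte, oligodendrocyte precursor, dendritic cell and neuron lists. The part of all these cells in those differences was not tested. Mki67, a marker of dividing cells, was at or below 14.3 CPM, with a median of -0.03 over 22 proliferation genes.

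The LPS response was then set against the ethanol response of the other cohort, each against its own controls, in a fit on all 28 microglial libraries. Of 14394 genes 7 differed between the responses (0.0486%), and 1546 had an unadjusted p below 0.05 (10.7%). Rassf4, Alpk1 and Saa3 were higher in the LPS response, and Adamts16, Klf2, Aars and Yars were lower. Alpk1, a kinase that senses bacterial sugar metabolites, had 23.9, 23.7, 18.02, 28.7 and 27.02 CPM after LPS, against 8.41, 13.5, 10.1, 15.1 and 11.6 CPM after saline, without overlap. Its LPS response was 1.05 (SE 0.24) and its ethanol response -0.51 (SE 0.18), a difference of 1.56 (SE 0.30, adjusted p = 0.0207). Mean Alpk1 was 11.7 CPM in saline, 11.5 CPM in ethanol and 16.2 CPM in water libraries, so the control groups differed here too. Rassf4, a RAS association domain protein, had 295, 266, 273, 334 and 240.4 CPM after LPS, against 129, 201, 195, 217 and 199.7 CPM after saline, without overlap, with an LPS response of 0.58 (adjusted p = 0.0165 in the same fit), an ethanol response of -0.15 and a difference of 0.73 (SE 0.13, adjusted p = 0.0179). Saa3 had a fitted difference of 12.37 (adjusted p = 0.0349) that rests on empty libraries, and it had an adjusted p of 1 without saline mice 38 and 48 and water mice 19 and 24.

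Klf2 had an LPS response of -0.68 (SE 0.16) and an ethanol response of 0.45 (SE 0.12), a difference of -1.13 (SE 0.20, adjusted p = 0.0179). Aars, the synthetase that loads alanine on its tRNA, had 161, 180.4, 187, 172 and 169.9 CPM after LPS, against 221, 285, 255, 204 and 253 CPM after saline, without overlap. Its responses were -0.48 (SE 0.11) and 0.24 (SE 0.08), a difference of -0.73 (SE 0.13, adjusted p = 0.0184). Yars, the tyrosine enzyme, had 44.9, 37.7, 41.5, 31.2 and 51.2 CPM after LPS, against 57.5, 83.04, 67.8, 57.6 and 55.1 CPM after saline, also without overlap. Its LPS response was -0.64 (adjusted p = 0.0369 in the same fit) and its ethanol response 0.20, a difference of -0.83 (SE 0.16, adjusted p = 0.0329). Adamts16, a secreted metalloprotease, had 19.3, 37.3, 31.1, 20.99 and 16.8 CPM after LPS, against 36.3, 41.05, 36.2, 31.1 and 35.2 CPM after saline, with overlapping libraries, and a difference of -1.51 (SE 0.27, adjusted p = 0.0179) that came mostly from its ethanol response of 0.99 (SE 0.16). Its ethanol and water libraries had 26.6 to 49.5 and 13.6 to 23.3 CPM. The 2 control groups thus differed, every saline library lying above every water library and within the ethanol range.

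The 7 calls depended on LPS mouse 50: without it none was made, with 1506 genes at an unadjusted p below 0.05 and adjusted p-values of 0.0507 to 0.0923 for the 7. Without saline mouse 45 there were 26 calls, without LPS mouse 33 there were 15 and without LPS mouse 51 there were 12, and all 7 were among them. Alpk1 also lost its call without saline mouse 46 or 49 (0.0549 and 0.0553), and Yars without LPS mouse 40 or 44 or saline mouse 46 (0.0585, 0.0744 and 0.0549). Saa3 lost it without LPS mouse 40 or 44 and without saline mouse 38, 46, 48 or 49, at adjusted p-values of 0.0507 to 0.1. DESeq2 called 136 genes and limma-voom 20. The cohorts were separate, so any difference between them beyond treatment cannot be told apart from the difference of the responses.

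**Figure D5:**
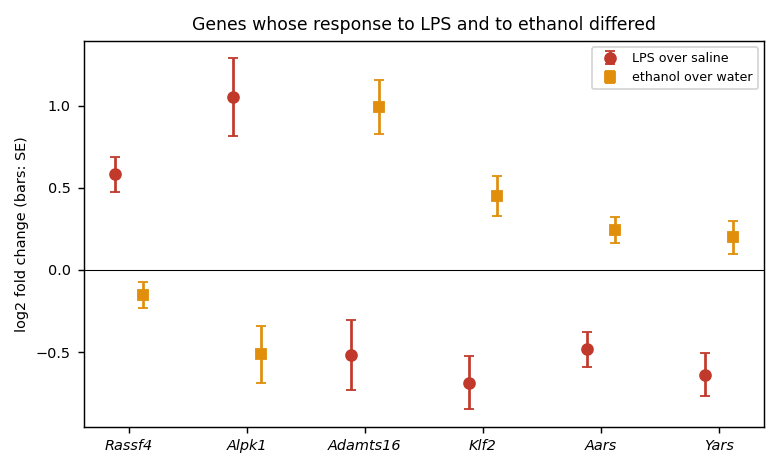
Points are the log2 fold changes of LPS over saline (red circles) and of ethanol over water (orange squares) in microglia for 6 of the 7 genes whose responses differed, with SE bars, from 1 fit on 28 libraries. Saa3 is left out because its fitted values rest on libraries with no count. Rassf4 and Alpk1 lie above 0 with LPS, Klf2, Aars and Yars below 0 with LPS, and Adamts16 lies highest with ethanol.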

How the data were processed

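The counts were deposited by the authors as 1 text file per library, with a gene symbol and a whole number of reads. Per the submitters' processing notes reads were made with bcl2fastq 2.15.0.4 and the tools named are STAR, HTSeq, FastQC and DESeq2, with build mm10. Strand setting, annotation and read mate counting were not given in the sources used here. Summary entries that name no gene were left out of library totals and tests. Reads outside genes were 32.3% on average after LPS and 31.3% after saline.

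The 5 LPS and 5 saline libraries, with 20.8 to 39.9 M counts each, were compared with edgeR 4.0.16 (R 4.3.3; TMM scaling, filterByExpr, quasi-likelihood F-test, Benjamini-Hochberg threshold 0.05). SE was taken as the size of the log2 fold change over the root of its F statistic. DESeq2 1.42.0 and limma-voom (limma 3.58.1) were alternatives, with RLE scaling, other filters, a fit on all 4 microglial groups, covariates and each replicate left out. The scripts were tested on simulated data. Intervals and floors cover counting error only.

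Named genes were those past the threshold, a set of immune and marker genes named whatever their p, and, chosen after their values were seen, other list members. The gene lists and the comparison were chosen with earlier results of these data known. Gene positions are from GENCODE M21, and promoters are from RefSeq (GRCm38.p6), searched on both strands. The same fit on 28 microglial libraries gave the difference between the LPS and ethanol responses.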

Additional observations from a re-analysis of the deposited data

Results flagged for a closer look

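A single library stood far from the other 4 of its group in 10 of 120 groups of libraries checked over 56 genes. The share that chance alone would give was not computed. For Saa3, Cxcl13 and Cd3e the flagged value was the only one above 0 among the saline mice. Saline mouse 45 accounted for 5: Apoe at 1840 CPM, Axl at 64.1 CPM, C4b at 70.0 CPM, Cxcl13 at 0.61 CPM and Cd3e at 0.746 CPM, each above the other saline mice. Saline mouse 38 stood low for Il1b, at 66.0 CPM, and for Rassf4, at 129 CPM. LPS mouse 33 stood high for Tmem119, at 2010 CPM, and for Klf2, at 1190 CPM. Saline mouse 49 was the only saline library with Saa3, at 0.15 CPM.

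The response to LPS differed from the response to ethanol, by the test of the difference in edgeR, for 7 genes. The differences, LPS minus ethanol on the log2 scale, were 0.735 for Rassf4, 1.56 for Alpk1, 12.4 for Saa3, -1.51 for Adamts16, -1.13 for Klf2, -0.725 for Aars and -0.834 for Yars. None of the 7 was called without LPS mouse 50, where 1506 genes had an unadjusted p below 0.05. DESeq2 called 136 genes and limma-voom 20.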

How the results depend on the processing

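The number of genes called between LPS and saline, 2, was 73 with DESeq2, 1 with limma-voom, 17 with no filter on low counts, 13 with all 4 microglial groups in one fit and 10 without saline mice 38 and 48, and 0 to 6 with each replicate left out. The difference of responses, 7 genes, was 136 with DESeq2, 20 with limma-voom and 0 to 26 with each replicate left out. No value that was called changed sign under any of the alternatives run. Of 57 genes followed through the alternatives, 39 were called in none and 16 were called only in 1 or more alternatives. Of 46 list medians, 9 moved and 15 changed sign in at least 1 alternative. The cause of these differences was not tested. No paired analysis was possible because the LPS and saline mice share no replicate number. With 5 libraries a group, a gene with few counts, such as those of the T and NK cell list, is measured with large error.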

Other observations

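Ribosomal protein genes had positive log2 fold changes, LPS over saline, in 45 of 50, a median of 0.23 and 17 with an unadjusted p below 0.05, all higher, against 2.94% of all genes. None passed the adjusted threshold in edgeR, and DESeq2 called 4 higher, where it called 0.921% of its genes higher. The sum of the list overlapped, at 9097 to 10950 CPM after LPS and 7282 to 10650 CPM after saline. Many of these genes have processed copies in the genome, so that their counts can be split or borrowed. Without saline mice 38 and 48, 25 had an unadjusted p below 0.05, and the median was 0.24.

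Genes of the responses to amino acid shortage and unfolded protein had mostly negative log2 fold changes on all libraries, and less so without saline mice 38 and 48. Of 20 cytosolic aminoacyl-tRNA synthetases, a list added after the data were seen, 4 had an unadjusted p below 0.05, all lower: Aars, Yars, Sars and Lars, which load alanine, tyrosine, serine and leucine. The median was -0.11, and 13 of 20 were negative. Without both mice it was -0.055, with 11 negative. Atf4, the transcription factor that drives many of them, had 423, 374, 461, 428 and 393 CPM after LPS, against 693, 471, 422, 575 and 596 CPM after saline, at -0.41 (SE 0.12, adjusted p = 0.514), with overlapping groups. Among 26 genes of the unfolded protein response, 3 had an unadjusted p below 0.05 in the lower direction, Atf4, Xbp1 and Hsp90b1, and 1 in the higher, Dnajb9. Of the 26, 17 were negative, and without both mice 14 were, with 1 below 0.05 in each direction. Dnajb9, a chaperone of the endoplasmic reticulum, had 167, 176, 177, 206 and 173 CPM after LPS, against 146, 144, 115, 151 and 157 CPM after saline, without overlap, at 0.33 (SE 0.11, adjusted p = 0.646). Proteasome genes had a median of -0.13, with 18 of 26 negative, and without both mice -0.065, with 15 negative. Fkbp5, a glucocorticoid target, had 219.8, 78.1, 112, 97.2 and 131 CPM after LPS, against 77.5, 75.4, 90.2, 81.5 and 113 CPM after saline, at 0.54 (SE 0.21, adjusted p = 0.774), and LPS mouse 33 stood highest.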
